A study of Mus musculus with 5 samples.

Results

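Of the 196406 different entry names in the piRNA tables of 5 mouse libraries, 1338 (0.681%) carry chrM, the name of the mitochondrial chromosome. All 1338 were taken as the mitochondrial piRNA entries. The names consist of the prefix mmur, a running number and the mark. They hold no sequence and no position, so the mitochondrial gene behind an entry is not known and no sequence is shown. The mark occurs in the piRNA tables and in none of the tables of miRNAs, snoRNAs or endogenous small interfering RNAs. The other entries are 59335 with the same prefix and no mark, and 135733 with the prefix PIR.

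The libraries hold small RNAs 18 to 32 nucleotides long. The first is from primordial germ cells (PGCs) of CD-1 fetal male gonads at day 13.5, taken with anti-CD15 beads. Spermatogonia came from CD-1 testes 8.5 days after birth, as the cells left in suspension while somatic cells settled for 3 to 4 hours. Spermatozoa came from the cauda epididymis and vas deferens of mature CD-1 males, purified on Percoll and by hypo-osmotic shock. Metaphase II (MII) oocytes (15210 cells) came from superovulated C57BL/6 females. Zygotes (15416 cells) were collected 15 to 18 hours past fertilization, once superovulated C57BL/6 females had been paired to males of strain DBA/6J. None of the groups carries a named mutation. Each cell type is 1 library of pooled cells. Differences between them therefore lack a check by replicates, and none was tested. Strain and preparation cannot be told apart from cell type where they differ.

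PIWI-interacting RNAs (piRNAs) are small RNAs bound by PIWI proteins, which silence transposons in the germ line. Part of this pathway sits at mitochondria: the outer membrane protein Pld6 (MitoPLD) takes part in making piRNAs, and piRNA granules of fetal male germ cells lie between mitochondria. The mitochondrial genome encodes ribosomal RNAs, transfer RNAs and messenger RNAs of the respiratory chain, and it is transcribed from both strands as long precursors that are cut into pieces. Copies of mitochondrial sequence also lie in nuclear chromosomes, so a mitochondrial match does not by itself show from which genome an RNA came. Mature oocytes hold very many mitochondria, while spermatozoa carry theirs in the midpiece.

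The piRNA tables held 5820204 reads in PGCs, 7150813 in spermatogonia, 18212803 in spermatozoa, 14513316 in MII oocytes and 9552106 in zygotes. Levels are given as RPM, an entry's reads per 1000000 piRNA reads of its library, and an entry absent from a table counts as 0. Brackets hold exact 95% intervals, which cover counting error only, since copies made by PCR are not independent molecules. For sums and shares they also take the reads of different entries as separate counts. Reads shared between entries would make them too narrow. miR-34c-5p, a miRNA of late spermatogenesis, had 221799 reads per 1000000 miRNA reads in spermatozoa and at most 8144 in the other libraries. miR-295-3p, of the embryonic and early germ cell cluster, had 10682 in PGCs and at most 1619 elsewhere. Markers of other cells were present as well. The smooth muscle and peritubular miRNAs miR-143 and miR-145a summed to 233110 reads per 1000000 miRNA reads in spermatogonia and 230783 in spermatozoa, against 9261 to 26563 in the other libraries, with none of their 4 entries at 0. Nearly all of these sums was miR-143-3p, with 230893 in spermatogonia and 230279 in spermatozoa. The levels of miR-145a-5p were not alike, with 2149 in spermatogonia, 459 in spermatozoa and 29.2 to 216 in the other libraries. The erythroid list summed to 19450 in spermatozoa and to 213 to 2031 elsewhere, with 1 of 5 entries at 0 in oocytes. Most of the sum in spermatozoa was miR-451a (15832). miR-486-3p went the other way, with 12.3 in spermatozoa, 16.5 in spermatogonia, 23.4 in oocytes and 32.9 in zygotes. Each other erythroid entry was highest in spermatozoa. The epithelial list summed to 22968 in spermatozoa and to 1084 to 9966 elsewhere. Of its 10 entries, 1 was at 0 in PGCs, 3 in spermatogonia and 2 in each egg-stage library. The most abundant of them, miR-200c-3p, did not set spermatozoa apart, with 7404 there, 8355 in oocytes and 6718 in zygotes. Each other epithelial entry was highest in spermatozoa. The leukocyte list summed to 3106 in spermatozoa and to 304 to 1631 elsewhere, with up to 3 of 7 entries at 0. Its entries differed in direction. The most abundant in spermatozoa, miR-142-3p, had 2304 there and 19.4 to 532 elsewhere. In contrast, miR-155-5p had 1384 in oocytes and 1554 in zygotes, against 40.7 to 48.5 in the other libraries. Endothelial miR-126a (9053) and miR-202 of the gonadal soma (14981) were highest in spermatogonia, against 96.7 to 1051 and 103 to 5723 in the other libraries. What part such cells have in the mitochondrial reads was not tested.

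The mitochondrial entries took a small share of piRNA reads in every library. They summed to 1722 RPM in PGCs [1689 to 1756], 2136 in spermatogonia [2102 to 2170], 1658 in spermatozoa [1639 to 1677], 879 in MII oocytes [864 to 894] and 1128 in zygotes [1107 to 1150]. Spermatogonia were thus highest and oocytes lowest on this scale. In RPM over all 4 tables together, the order was another, with 377 in PGCs, 580 in spermatogonia, 1383 in spermatozoa, 295 in MII oocytes and 249 in zygotes. Spermatozoa were then highest and zygotes lowest. The piRNA table held 18212803 of the 21827067 reads of the 4 tables in spermatozoa, the highest share of the 5 libraries. The share of each entry among mitochondrial reads does not depend on that choice, and it is given beside the levels.

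Most members were listed with few reads. PGCs listed 801 members, spermatogonia 1012, spermatozoa 1197, oocytes 942 and zygotes 995. The median listed member had 1.45, 1.29, 1.23, 0.82 and 0.76 reads in those libraries, in the same order, and the most abundant one 707, 947, 2066, 1442 and 1080. Deposited reads are not whole numbers, and how they were divided is not stated. Of the listed mitochondrial values, 98.9% to 99.8% had a fraction, against 78.1% to 82.5% of the other piRNA values of the same libraries. All 5 libraries listed 633 members (47.3%), against 21.5% of the other piRNA entries, and these 633 held 97.1% to 99.0% of the mitochondrial reads of each library. The 178 members listed by a single library had at most 2.93 reads there. Over the 5 libraries together, 94 members had at least 100 reads, and 402 had less than 1.

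Ordered by their numbers, the members fell into 269 runs of consecutive numbers, 224 of them with at least 2 entries and the longest with 19. A run is named here by its last entry. The runs lay between numbers 4361 and 1483919, while the mmur names without the mark spanned 1074 to 1490363. An unmarked mmur entry stood directly below the first number of only 2 runs, and directly above the last number of only 2. Within the runs the reads never went down with rising number. Of the 1069 steps from one entry to the next, with reads summed over the libraries, 918 went up, 151 were equal and 0 went down. In each library taken alone 0 of the 1069 steps went down, while 439 (PGCs) to 732 (spermatozoa) went up. In all 224 runs the last entry therefore had the highest reads or tied for them. Among mmur entries without the mark, 1.57% to 1.75% of 48418 such steps went down in a given library. Neighbouring entries of a run carry near-equal reads in many places, so entries of a run are not independent measurements. Counts below are therefore given over entries and over runs.

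A pair of runs held 22.0% to 75.8% of the mitochondrial reads. The leading run, mmur001053996chrM to mmur001054014chrM with 19 entries, took 54.0% of mitochondrial reads in PGCs [53.0 to 54.9], 12.0% in spermatogonia [11.5 to 12.5], 68.5% in spermatozoa [68.0 to 69.0], 34.3% in MII oocytes [33.5 to 35.1] and 38.7% in zygotes [37.8 to 39.7]. It was the most abundant run in each of the 5 libraries, with its highest share in spermatozoa and its lowest in spermatogonia, where the next run held 10.3%. In RPM its sum was 929, 257, 1135, 301 and 437 in the same order of libraries. The second run, mmur000716031chrM to mmur000716045chrM with 15 entries, took 8.61% in PGCs [8.07 to 9.17], 9.998% in spermatogonia [9.53 to 10.5], 7.29% in spermatozoa [7.002 to 7.59], 32.4% in MII oocytes [31.6 to 33.2] and 30.8% in zygotes [29.9 to 31.6]. By share, the second run set the egg-stage libraries apart from the male germ cells, where it was never above 10.5% by its interval. In RPM the contrast was smaller. Its sum was 148 in PGCs, 214 in spermatogonia, 121 in spermatozoa, 285 in MII oocytes and 347 in zygotes. The entries outside both runs summed to 1666 RPM in spermatogonia, against 645 in PGCs, 402 in spermatozoa, 293 in MII oocytes and 344 in zygotes.

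**Figure D1:**
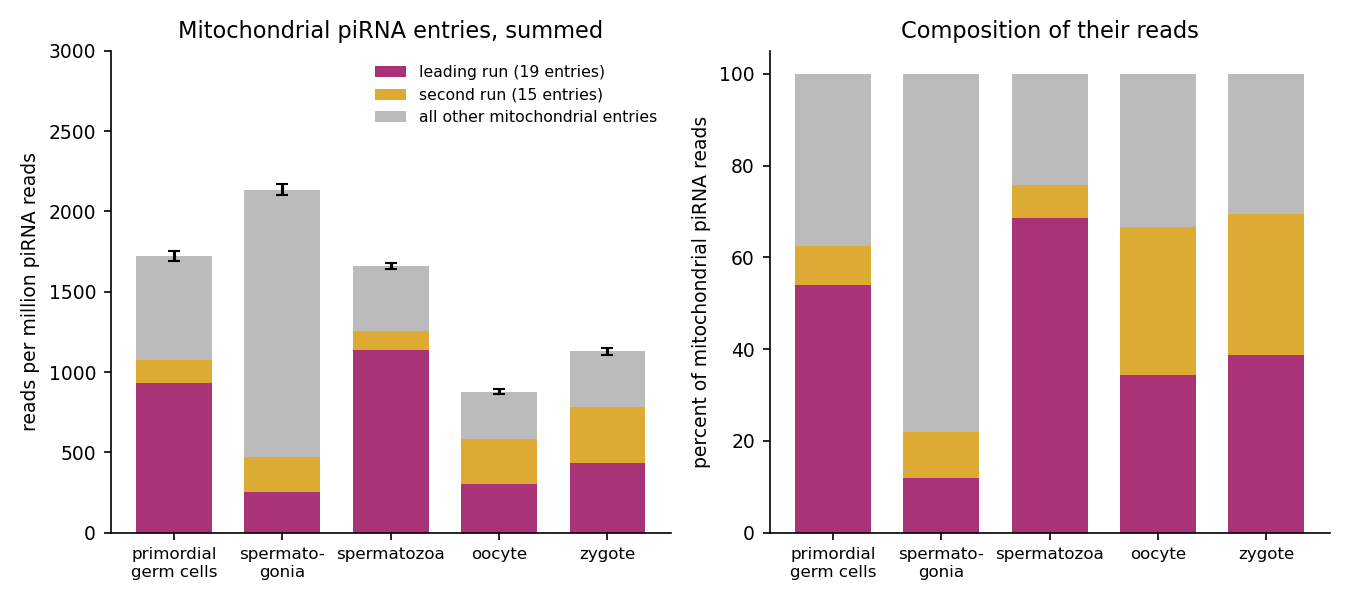
Left, the summed level of mitochondrial piRNA entries in RPM for each of the 5 libraries, with bars divided into the leading run, the second run and all others, and exact 95% counting intervals of the total. Right, the same reads as percent of all mitochondrial piRNA reads of the library. The leading run fills 68.5% of the spermatozoa bar and 12.0% of the spermatogonia bar, and the second run 32.4% of the oocyte bar.

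The last entry of the leading run, mmur001054014chrM, had 707 reads in PGCs, 233 in spermatogonia, 2066 in spermatozoa, 431 in MII oocytes and 422 in zygotes. The entries just below it, mmur001054013chrM, mmur001054012chrM, mmur001054011chrM and mmur001054010chrM, stood between 698 and 700 reads in PGCs and between 2049 and 2059 in spermatozoa. The last entry of the second run, mmur000716045chrM, had 226 reads in PGCs, 548 in spermatogonia, 716 in spermatozoa, 1442 in MII oocytes and 1080 in zygotes. It was the entry with the most mitochondrial reads in oocytes and zygotes, as mmur001054014chrM was in PGCs and spermatozoa. In spermatogonia the first place went to mmur000687509chrM, which belongs to neither run.

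The shape inside the leading run also differed between libraries, and a shape does not depend on the scaling either. In PGCs the largest step lay between mmur001054008chrM, with 258 reads, and mmur001054009chrM, with 675 reads. As percent of the last entry of the run, mmur001054008chrM stood at 36.4% in PGCs [31.5 to 42.1] and 47.6% in spermatogonia [37.7 to 60.0]. It stood at 76.6% in spermatozoa [71.6 to 81.7], 76.5% in MII oocytes [66.1 to 88.6] and 72.0% in zygotes [62.0 to 83.7]. Spermatozoa thus lay with the egg-stage libraries in this measure, although their share of the run among mitochondrial reads was nearer to that of PGCs. These intervals take the reads of both entries as independent counts, which shared reads would break, and the entry was chosen after its values were seen. In the second run mmur000716043chrM stood at 52.6% of the last entry in PGCs [41.8 to 66.03], against 20.1% in spermatogonia [16.2 to 24.7], 26.0% in spermatozoa [22.0 to 30.6], 20.1% in MII oocytes [17.7 to 22.8] and 23.9% in zygotes [20.8 to 27.4]. Here PGCs stood apart and the other 4 libraries lay close together.

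**Figure D2:**
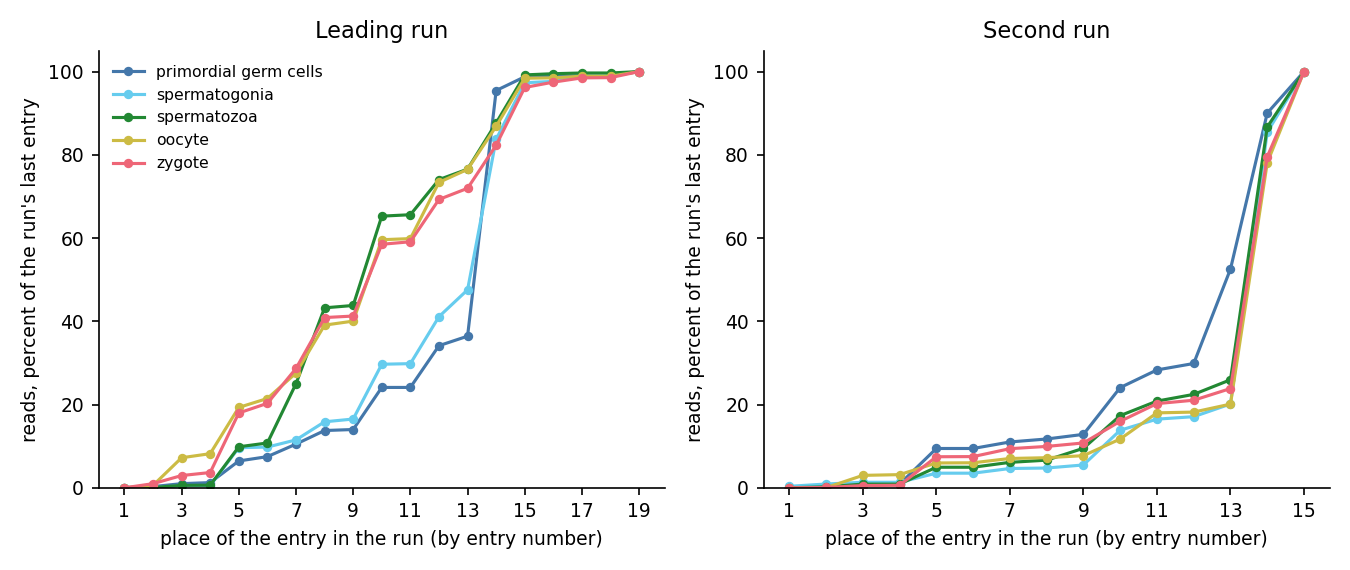
Reads of each entry as percent of the last entry of its run (vertical axis) against the place of the entry in the run by its number (horizontal axis), for the leading and the second run, with 1 line per library. In the leading run, PGCs (36.4%) and spermatogonia (47.6%) lie under the other 3 libraries (72.0% to 76.6%) at place 13, and all 5 lines meet in the last places.

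Several runs had their highest share in spermatogonia. The run ending in mmur000687509chrM, with 6 entries, took 10.3% of mitochondrial reads in spermatogonia, against 1.12% in PGCs, 0.522% in spermatozoa, 0.502% in MII oocytes and 0.458% in zygotes. Its last entry had 73 reads in PGCs, 947 in spermatogonia, 77 in spermatozoa, 33 in MII oocytes and 22 in zygotes, so the spermatogonia library alone was high. The run ending in mmur000842133chrM, with 2 entries, was at 398 reads in spermatogonia, against 8.35 in PGCs, 39.5 in spermatozoa, 2.75 in MII oocytes and 1.81 in zygotes. That of mmur000047191chrM, with 6 entries, had 349 reads in spermatogonia, against 15.6 in PGCs, 59.9 in spermatozoa, 14.6 in MII oocytes and 17.8 in zygotes. The run ending in mmur000867293chrM took 2.80% of mitochondrial reads in spermatogonia and 0.085% (zygote) to 0.346% (PGCs) in the others. Of the 71 runs with at least 100 reads over the 5 libraries, 35 had their highest share of mitochondrial reads in spermatogonia, 18 in oocytes, 10 in PGCs, 5 in zygotes and 3 in spermatozoa. Shares are parts of a whole, so this tally depends on the leading run. That run took 68.5% in spermatozoa and 12.0% in spermatogonia, which left less or more for the others. No such tally of shares was made for other entries. By RPM, 47 of the 71 (66.2%) were highest in spermatogonia, where 67.1% of 3950 runs of unmarked mmur entries with as many reads were, so this share was near that of the other runs. Zygotes were highest for 12 (16.9%), against 2.05% of the unmarked runs, and PGCs for 9 (12.7%), against 23.6%. Spermatozoa were highest for 2 (2.82%), against 6.46%, and oocytes for 1 (1.41%), against 0.785%. Of 11538 single piRNA entries of all kinds with as many reads, 44.3% were highest in spermatogonia and 17.5% in zygotes. PGCs led 20.8% of them, spermatozoa 14.1% and oocytes 3.35%. The zygote share of the 71 runs was near that of these single entries, and the spermatogonia share lay above it. Runs are sums of entries, so these are unlike units, and no such tally was made over single mitochondrial entries. Spermatogonia were also highest in the endothelial and gonadal soma miRNAs given above. The smooth muscle and peritubular sum was nearly alike in spermatogonia (233110) and spermatozoa (230783), though miR-145a-5p was higher in spermatogonia (2149 against 459). The part of such cells in these runs was not tested.

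Other runs were carried by the egg. The run ending in mmur000059046chrM took 2.85% of mitochondrial reads in MII oocytes and 4.40% in zygotes, against 0.063% in PGCs, 0.692% in spermatogonia and 0.159% in spermatozoa. Its last entry had 1.99 reads in PGCs, 72.7 in spermatogonia, 11.7 in spermatozoa, 278 in MII oocytes and 363 in zygotes. A further egg run, ending in mmur000714354chrM, took 1.17% in MII oocytes and 1.18% in zygotes, and 0.035% to 0.145% in the male germ cells. The runs ending in mmur000131734chrM and mmur000486412chrM took 0.844% to 1.13% in the egg-stage libraries and 0.103% to 0.216% in the male germ cells. The run ending in mmur001057159chrM joined spermatogonia with the egg. It had 263 reads in spermatogonia, 206 in MII oocytes and 167 in zygotes, against 0.5 in PGCs and 13.9 in spermatozoa. At the other end, the run ending in mmur000974704chrM, with 12 entries, was nearly level, at 0.971% (spermatozoa) to 1.65% (oocyte) of mitochondrial reads.

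**Figure D3:**
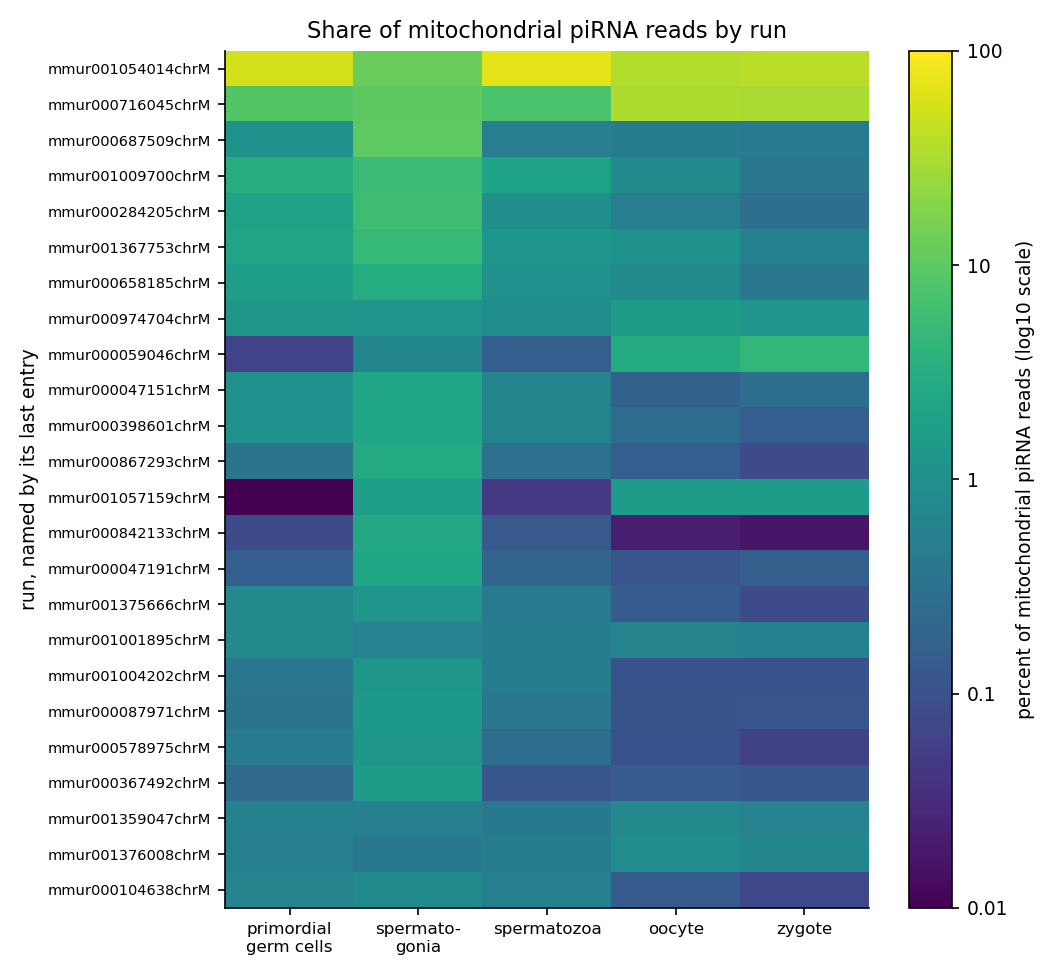
Share of mitochondrial piRNA reads, on a log10 colour scale from 0.01% to 100%, for the 24 runs with the highest mean level (rows, named by their last entry) in the 5 libraries (columns). Lower shares take the colour of 0.01%. The row of mmur000687509chrM is brightest in spermatogonia (10.3%), and the row of mmur000059046chrM is brightest in oocytes (2.85%) and zygotes (4.40%).

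Across these 71 runs oocytes and zygotes had a Spearman correlation of RPM of 0.916. The next pair was PGCs and spermatozoa at 0.756, and spermatogonia stood at 0.552 with PGCs and 0.542 with spermatozoa. Spermatogonia with oocytes (-0.040) and with zygotes (-0.041) were lowest. These values describe runs, which are not independent replicates. Oocytes and zygotes share the maternal strain and the superovulation, and the runs were taken by their reads over all 5 libraries.

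Spermatogonia were set against PGCs, an earlier stage of the same lineage. The share of the leading run among mitochondrial reads was 4.49-fold lower in spermatogonia [4.26 to 4.74]. Their mitochondrial sum was 1.24-fold higher in RPM [1.21 to 1.27], and 2.37-fold higher [2.29 to 2.45] without the leading run, which itself was 3.62-fold lower [3.43 to 3.82]. Of the 1338 members 47 had at least 100 reads over the pair. At least 4-fold higher in spermatogonia were 10 of them (21.3%), where 29.8% of all piRNA entries with as many reads were, and 1 (2.13%) was at least 4-fold lower, where 5.31% of all were. In RPM of the piRNA table both shares lay under those of all entries. The median log2 ratio of the 47 was 0.98, against 0.85 over all entries. The 13 members of the leading run lay between -2.09 and -1.51, while 31 of the other 34 lay above 0. The 1 lower member was mmur001054009chrM, with 195 reads in spermatogonia and 675 in PGCs. The highest ratios belonged to mmur000842133chrM, 39.9-fold [20.2 to 93.7], mmur000047191chrM, 20.4-fold [11.1 to 43.8], and mmur001057159chrM, with 247 reads in spermatogonia and 0.5 in PGCs. With edgeR's TMM factors 8 members (17.0%) were at least 4-fold higher, against 18.3% of all entries, and 13 (27.7%) lower, against 12.0%. DESeq2's size factors gave 7 (14.9%) higher, against 15.4%, and 13 (27.7%) lower, against 15.3%. With the authors' deposited normalisation factor 9 (19.1%) were higher, against 25.4%, and 6 (12.8%) lower, against 7.59%. The share of lower members thus stood above that of all entries on these 3 scales, and every such member belonged to the leading run. The sum was then 1.29-fold lower, 1.55-fold lower and 1.05-fold higher. On the scale of all 4 tables, 14 (29.8%) were higher, against 34.5%, and 0 lower, against 3.87%, and the sum was 1.54-fold higher. Without the leading run the sum stayed higher in spermatogonia on every scale, by 1.23-fold (DESeq2) to 2.94-fold (all 4 tables). Counted in runs, 13 of 39 (33.3%) were at least 4-fold higher and 0 lower in RPM of the piRNA table, against 26.9% and 3.65% of runs of unmarked mmur entries.

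Spermatozoa were set against spermatogonia as the mature and the early stage of the male line. The share of the leading run among mitochondrial reads was 5.70-fold higher in spermatozoa [5.43 to 5.98], and that of the mmur000687509chrM run 19.8-fold lower [16.7 to 23.4]. The mitochondrial sum was 1.29-fold lower in RPM [1.26 to 1.31], and 3.60-fold lower [3.504 to 3.69] without the leading run. Of 58 members with at least 100 reads, 7 (12.1%) were at least 4-fold higher, against 17.1% of all piRNA entries. All 7 belonged to the leading run. At least 4-fold lower were 21 (36.2%), against 59.9% of all, and the median log2 ratio was -1.61 against -3.06 over all. All 43 members outside the leading run lay below 0, from -5.70 to -0.57, and all 15 members of the run above 0. The highest ratio was that of mmur001054003chrM, with 893 reads in spermatozoa and 36.9 in spermatogonia, 9.50-fold [6.82 to 13.5], followed by mmur001054004chrM and mmur001054006chrM. The lowest were mmur001057159chrM, with 11.6 reads in spermatozoa and 247 in spermatogonia, mmur000687509chrM and mmur000842133chrM, which was 26.7-fold lower [18.95 to 38.0]. Counted in runs, 2 of 45 (4.44%) were at least 4-fold higher and 23 (51.1%) lower, against 2.84% and 75% of runs of unmarked mmur entries. Directions depended on the scale here. In RPM over all 4 tables, the sum was 2.39-fold higher in spermatozoa, and 1.17-fold lower without the leading run. On that scale 15 members (25.9%) were at least 4-fold higher, against 22.7% of all entries, and 8 (13.8%) lower, against 43.8%. With TMM factors 20 (34.5%) were higher, against 30.5%, and 2 (3.45%) lower, against 29.4%. With DESeq2's factors 28 (48.3%) were higher, against 35.5%, and 1 (1.72%) lower, against 22.3%. With the deposited factor 15 (25.9%) were higher, against 26.6%, and 4 (6.90%) lower, against 35.04%. Without the most abundant piRNA entries 15 (25.9%) were higher, against 19.8%, and 13 (22.4%) lower, against 52.9%. The share of higher members thus lay above that of all entries on 4 of these 5 scales, and the share of lower members below it on all 5. Wherever 15 were higher, they were the 15 members of the leading run. With TMM and DESeq2's factors the higher members included all 15 of them. Among members outside that run, the share of higher ones lay below that of all entries on all 5 scales. Without the leading run the sum was 2.01-fold higher in spermatozoa with TMM factors, 3.18-fold with DESeq2's and 1.42-fold with the deposited factor. Spermatozoa also stood above spermatogonia in the erythroid (19450 against 2031), epithelial (22968 against 1084) and leukocyte (3106 against 304) miRNA sums, though not in every entry. The part of such cells in these ratios was not tested.

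Between the gametes, the share of the leading run among mitochondrial reads was 1.997-fold higher in spermatozoa [1.93 to 2.06]. The mitochondrial sum was 1.89-fold higher in spermatozoa than in oocytes [1.85 to 1.93]. Without the leading run it was 1.11-fold lower in spermatozoa [1.07 to 1.14], and without both leading runs 1.37-fold higher [1.32 to 1.42]. On the other 5 scales the sum without the leading run was higher in spermatozoa, by 1.39-fold (TMM) to 2.25-fold (all 4 tables). The share of the second run among mitochondrial reads was 4.44-fold lower in spermatozoa [4.22 to 4.68]. Of 47 members with at least 100 reads 9 (19.1%) were at least 4-fold higher, against 31.6% of all piRNA entries, and 3 (6.38%) at least 4-fold lower, against 35.3%. The lower ones were mmur000059046chrM, 29.8-fold [16.4 to 56.9], mmur000714354chrM, 29.4-fold [11.9 to 89.8], and mmur001057159chrM, 22.0-fold [11.9 to 41.8]. The highest ratio was that of mmur000104638chrM, with 90.6 reads in spermatozoa and 11.4 in oocytes, 6.35-fold [3.52 to 13.7], followed by mmur001009700chrM and mmur000047151chrM. The 15 members of the leading run lay between 0.93 and 2.07 on the log2 scale, on both sides of the 4-fold line, so the count of 9 depends on the scale. It was 26 (55.3%) on the scale of all 4 tables, against 43.8% of all entries, and 21 (44.7%) with TMM factors, against 36.6%. It was 22 (46.8%) with DESeq2's factors, against 39.6%, with the deposited factor, against 38.6%, and without the most abundant piRNA entries, against 37.2%. The share of higher members thus lay above that of all entries on these 5 scales and below it in RPM of the piRNA table. Most of the higher members on these 5 scales were entries of the leading run. Among members outside that run, the share of higher ones lay below that of all entries on each of the 5 scales. The count of 3 lower members (6.38%) was the same on these 5 scales, against 25.6% to 30.2% of all entries. Counted in runs, 9 of 33 (27.3%) were at least 4-fold higher and 4 (12.1%) lower in RPM of the piRNA table, against 21.6% and 24.5% of runs of unmarked mmur entries.

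Zygotes were compared with oocytes across fertilization. Of 35 members with at least 100 reads, 0 passed the 4-fold limit upward in zygotes, where 5.16% of all piRNA entries did, and 0 downward, where 4.99% did. Of 22 runs, 0 passed it either way, against 1.86% and 3.43% of runs of unmarked mmur entries. Their median log2 ratio was 0.51, against 0.50 over all, and they lay between -0.44 and 1.30. The highest were mmur000059045chrM, with 63.7 reads in zygotes and 39.2 in oocytes, 2.47-fold [1.65 to 3.81], and mmur000059046chrM, 1.98-fold [1.69 to 2.33], of the same run. mmur000716039chrM came next at 1.59-fold [1.21 to 2.08]. The lowest was mmur001367753chrM, with 33.9 reads in zygotes and 70.5 in oocytes, 1.37-fold lower [0.887 to 2.11], an interval that includes no difference. The mitochondrial sum was 1.28-fold higher in zygotes [1.25 to 1.32] in RPM, and 1.18-fold lower on the scale of all 4 tables. The share of the leading run was 1.13-fold higher [1.08 to 1.18] and that of the second run 1.05-fold lower [1.01 to 1.10].

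**Figure D4:**
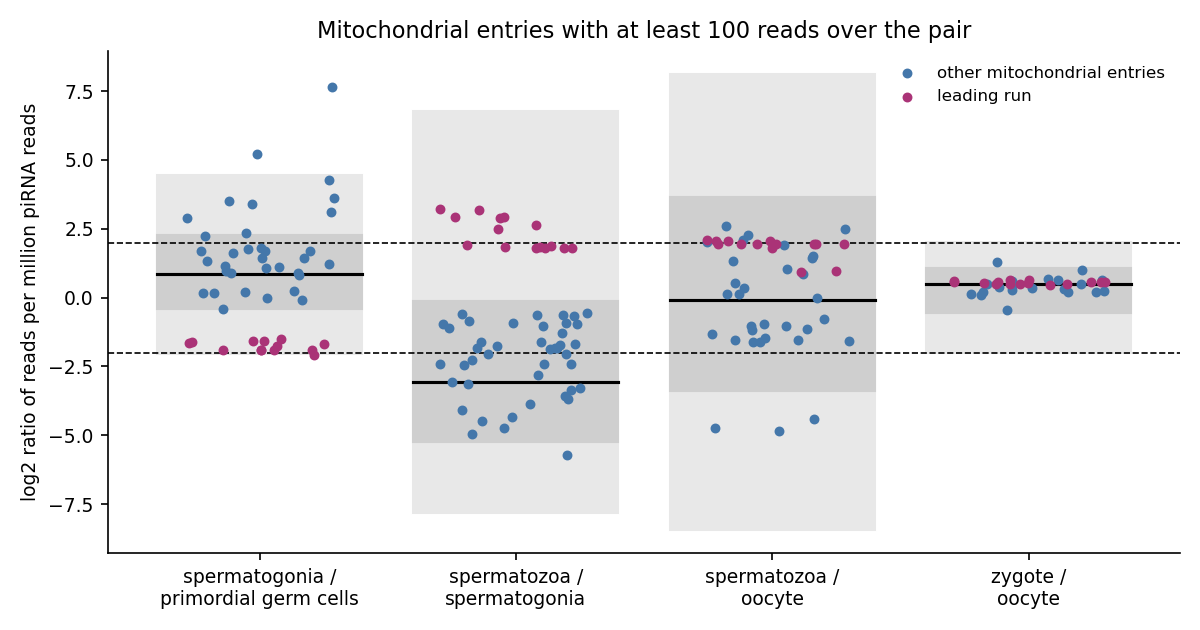
Log2 ratios of RPM (vertical axis) in the 4 comparisons, for mitochondrial entries that reached 100 reads over the pair, with the leading run in purple and the other members in blue, spread sideways at random. Grey boxes give the middle 50% and 90% of all piRNA entries with as many reads, the black line their median, and dashed lines the 4-fold limits. The leading run lies apart from the other members in the first 2 comparisons, below 0 in spermatogonia over PGCs and above 0 in spermatozoa over spermatogonia, and in zygote over oocyte no member reaches a dashed line.

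Members seen in 1 gamete were then looked for in zygotes. Of 304 members that spermatozoa listed and oocytes did not, 133 were listed in zygotes, or 43.8% [38.1 to 49.5]. Of 49 listed in oocytes and not in spermatozoa, 29 were, or 59.2% [44.2 to 73.0]. Of 81 listed in neither gamete, but in PGCs or spermatogonia, 26 were, or 32.1% [22.2 to 43.4]. The intervals of the first and the third group overlap, and the difference was not tested. The same shares were not computed over all piRNA entries, so nothing particular to the mitochondrial members can be read from them. The median in the gamete that listed them was 0.39 reads for the first group and 0.08 for the second. Being listed in 1 gamete alone thus rested mostly on fractions of a read, and the part of library depth was not tested. Nearly all these zygote values were fractions of a read: the median was 0.2, 0.13 and 0.1 reads in the 3 groups, and 3, 1 and 1 members had at least 1 read. Of the 893 members of both gametes, 796 (89.1%) were in zygotes, with a median of 1.28 reads. The intervals take members as independent, which runs of related entries are not.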

How the data were processed

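Small RNAs were sequenced from 5 mouse libraries, 1 per cell type. Bowtie 0.12.7, DESeq and the mm10 build are named, without roles, in the submitters' processing notes; the sources used here give neither the annotation sets nor the handling of multiple matches. The deposited read columns are expected counts (estimated, often fractional), per the file headers and values. The deposited normalised column is a signal, called TMM per the file headers, equal to reads times 1 factor per library (0.672 to 1.37).

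Entries were chosen by the mark chrM in their name. Reads were scaled to the piRNA table (RPM). For log2 ratios 0.5 reads were added as a pseudocount, only entries reaching 100 reads over both libraries entered, and differences of 4-fold or more were counted. Intervals are exact: Clopper-Pearson for shares, conditional Poisson for ratios, on rounded reads. 5 or 6 snoRNA entries naming no single RNA stayed out of totals. edgeR 4.0.16 TMM and DESeq2 1.42.0 size factors were computed on rounded reads of the 11579 piRNA entries with at least 100 reads over the libraries, a minimum set when simulated data showed that lower entries bias the factors. Fold rule, intervals and factors were tested on simulated data. Entries were named by rule: the 10 with the highest mean RPM, the 3 most abundant per library, and the 3 highest and 3 lowest ratios per comparison. A further clause on mitochondrial gene classes was not used, as the names give no coordinates. The runs of consecutive numbers, and the runs named, were chosen after the values were seen. Members, lists and tests were chosen with earlier results of these data known.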

Additional observations from a re-analysis of the deposited data

How the results depend on the processing

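With 1 library per cell type, no replicate could be left out and no paired analysis was possible because no replicates exist. Sums are given as log2 ratios, in the order spermatogonia over primordial germ cells, spermatozoa over spermatogonia, spermatozoa over oocyte and zygote over oocyte. They were 0.31, -0.37, 0.92 and 0.36 in RPM of the piRNA table. In RPM over all 4 tables, they were 0.62, 1.25, 2.23 and -0.24, with TMM factors -0.37, 2.49, 1.54 and 0.71, with DESeq2 factors -0.63, 3.15, 1.85 and 0.64, and with the deposited factor 0.066, 1.99, 1.77 and 0.30. Without the 11 entries among the 5 most abundant piRNA entries of any library they were 0.34, 0.44, 1.62 and 0.23. A scaling shifts every ratio of a comparison alike, by construction: by 0.31, 1.62, 1.31 and -0.60 for the 4 tables, -0.68, 2.86, 0.62 and 0.35 for TMM, -0.94, 3.51, 0.93 and 0.28 for DESeq2, and -0.24, 2.35, 0.85 and -0.06 for the deposited factor. With near-equal neighbours counted once, which left 1069 of 1338 entries, the sums were 0.78, -0.95, 0.55 and 0.32. Without the leading run they were 1.24, -1.85, -0.14 and 0.26. Without the most abundant mitochondrial entry the third was 1.05, and the others moved within their intervals.

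Counts of members at least 4-fold higher and lower are given in the same order. They were 10 and 1, 7 and 21, 9 and 3, 0 and 0. In RPM over all 4 tables, they were 14 and 0, 15 and 8, 26 and 3. With TMM factors they were 8 and 13, 20 and 2, 21 and 3, with DESeq2 factors 7 and 13, 28 and 1, 22 and 3, and with the deposited factor 9 and 6, 15 and 4, 22 and 3. Without the most abundant piRNA entries they were 10 and 1, 15 and 13, 22 and 3. Without the leading run they were 10 and 0, 0 and 21, 5 and 3. The last pair stayed at 0 and 0 under these 6 settings. With a minimum of 20 reads the counts were 33 and 2, 11 and 72, 37 and 15, 1 and 2. With 1 read they were 120 and 50, 17 and 224, 124 and 39, 20 and 2. With a pseudocount of 5 they were within 1.5 times the main ones. Among named entries at least 4-fold apart only mmur001367753chrM turned its direction, in spermatozoa over spermatogonia, to 0.41 with TMM and 1.06 with DESeq2 factors. The deposited factor, the omission of the leading run and the counts over runs were chosen after seeing the data. Depth limits most members: 926 of 1338 had under 10 reads over all libraries.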
